A study of Mus musculus with 18 samples.

Results

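Hoxb1-null neuromesodermal progenitors (NMPs) were compared with wild-type NMPs over all genes other than the Hox genes. The comparison rests on 6 of the series' 18 libraries, the 3 NMP libraries with the Hoxb1-null genotype and the 3 NMP libraries with the wild-type genotype, chosen by these labels alone. The other 12 libraries are neural progenitors with or without Hoxb1, each with or without the hedgehog pathway agonist SAG, and they enter only in a side-by-side reading of Hoxb1 loss and Hoxb1 gain. All cells were derived from mouse embryonic stem cells. The strain label is C57BL/6 and the treatment label is the same differentiation for both NMP groups. How the null allele was made, which part of Hoxb1 it removes and how many clones were used were not given in the sources used here, so that another difference between the wild-type and the null line cannot be told apart from the loss of Hoxb1 in any value given here. Whether the 3 libraries of a group came from separate cultures is not given either, and the p-values therefore measure only the spread between these libraries, which may be technical. In these bulk samples, fewer cells of a type and less RNA per cell cannot be told apart.

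NMPs are cells of the caudal epiblast and tail bud that give rise both to spinal cord and to the paraxial mesoderm from which somites form. Wnt and FGF signals keep them in this state, and they are recognised by expressing T (brachyury), Cdx2, Nkx1-2 and Sox2 together. Hoxb1 is a homeodomain transcription factor among the first Hox genes to be expressed in the posterior embryo, it binds DNA together with PBX and MEIS proteins, and it is best known for patterning the hindbrain.

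Counts summed to 16523276, 21141058 and 18557452 in the wild-type libraries and to 16836409, 19136064 and 17374776 in the null libraries, and 15032 of 37224 genes in the table had enough counts to be tested. Levels are in CPM, that is, counts relative to each library's effective size, and differences are log2 changes of null minus wild type with their standard error (SE). A gene is said to rise or fall where edgeR's quasi-likelihood test gave a Benjamini-Hochberg adjusted p under 0.05 over all 15032 genes. The first principal component, with 63.7% of the variance, separated the genotypes. Null replicate 3 stood apart from the other null libraries, and the per-gene chi-square of their counts was 5.08 against null replicate 1, 3.97 against null replicate 2, 2.34 between those and 1.53 to 1.65 between wild-type libraries. Its share of counts from mitochondrially encoded genes was 0.792%, against 0.901% and 0.902% in null replicates 2 and 1.

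Hoxb1 (mm10 chromosome 11, 96365752 to 96368256, plus strand) was at 225, 252 and 234 CPM in wild-type and 13.7, 15.1 and 13.7 CPM in null libraries (log2 change -4.06, SE 0.059, adjusted p = 2.51e-23). All null libraries were far below all wild-type libraries, and the reads that remained may lie outside the deleted part. The 6 libraries expressed the defining NMP genes. T was between 986.4 and 1149.9 CPM, Nkx1-2 between 96.7 and 154 CPM, Cdx2 between 64.4 and 102 CPM, Sox2 between 11.5 and 17.002 CPM, and Tbx6, a paraxial mesoderm determinant, between 133 and 197 CPM. Cdx2 and Tbx6 fell in null NMPs (log2 change -0.46 and -0.40, edgeR adjusted p = 7.1e-05 and 8.51e-07), with calls kept in every alternative. Nkx1-2 and T also fell (-0.43 and -0.11, adjusted p = 0.00926 and 0.0358), and Sox2 rose (0.29, adjusted p = 0.023). The calls of Nkx1-2, T and Sox2 were lost in 1, 5 and 4 alternatives. Of 20 listed NMP genes, 12 fell and 5 rose, with a median log2 change of -0.25 against -0.00013 over all tested genes, while 14.9% of all tested genes rose and 13.9% fell. Under DESeq2, and when wild-type replicate 2 or 3 was left out, 3 were called higher. Fgf17, an FGF ligand of the tail bud, was at 18.04, 18.8 and 15.99 CPM in wild-type and 9.15, 9.82 and 9.15 CPM in null libraries (log2 change -0.91, SE 0.091, adjusted p = 1.09e-07). Cdx4, a caudal-type homeobox gene, was at 17.9, 19.7 and 16.97 CPM in wild-type and 12.5, 11.5 and 7.61 CPM in null libraries (log2 change -0.79, SE 0.13, adjusted p = 0.000268). The libraries of the 2 genotypes did not overlap for either gene, and for Cdx4 null replicate 3 was the lowest. Tbx3, a T-box gene and the largest rise in this list, went from 16.02, 15.2 and 15.4 to 28.6, 30.4 and 30.7 CPM.

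The change was wide and mostly small. Of 15032 tested genes, 2244 (14.9%) rose and 2083 (13.9%) fell in null NMPs, 28.8% in all, and for 73.7% of these 4327 genes the fold was under 1.5. The median fold was 1.35 among genes that rose and 1.21 among genes that fell. At least 2-fold differences were found for 326 genes that rose (2.17% of those tested) and 104 that fell (0.692%), and a test against a minimum of 1.5-fold was passed by 164 (1.09%) and 80 (0.532%). The 3 null libraries lay above all wild-type libraries for 21.1% of genes and below them for 20.9%. DESeq2 called 1424 genes higher, and 49 higher and 42 lower in the test against 1.5-fold. Without wild-type replicate 2, 95 genes passed the 1.5-fold test as higher. Without null replicate 3, 2514 genes rose and 2583 fell.

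Large rises lay mostly among weakly expressed genes. Tested genes were split by mean level into 5 equal groups. In the lowest group 530 genes rose and 142 fell, with a median log2 change of 0.14, and it held 262 of the 326 rises of at least 2-fold, while in the highest group 404 rose and 569 fell. Of the 326 genes that rose at least 2-fold, 208 had a wild-type mean under 1 CPM. Of the 104 that fell at least 2-fold, 51 had a null mean under 1 CPM. Calls were spread over the genome, and the median log2 change of an autosome or of the X chromosome lay between -0.029 and 0.028. In 229 stretches of 10 Mb with at least 20 tested genes, a median of 14.6% of genes rose and 13.3% fell, and the highest shares were 31.0% risers, on chromosome 12 from 10 to 20 Mb, and 30.6% fallers, on chromosome 13 from 20 to 30 Mb. Leaving out the Hox genes, 38 tested genes lay within 1 Mb of Hoxb1, of which 6 rose and 5 fell, with a median of 0.029. Among them B4galnt2, a glycosyltransferase, rose from 2.26 to 5.19 CPM and Sp6, a zinc finger transcription factor, from 26.1 to 36.6 CPM, while Skap1, a T cell adaptor protein gene beside the Hoxb cluster, fell from 3.76 to 1.70 CPM and Scrn2 from 17.9 to 13.4 CPM.

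**Figure D1:**
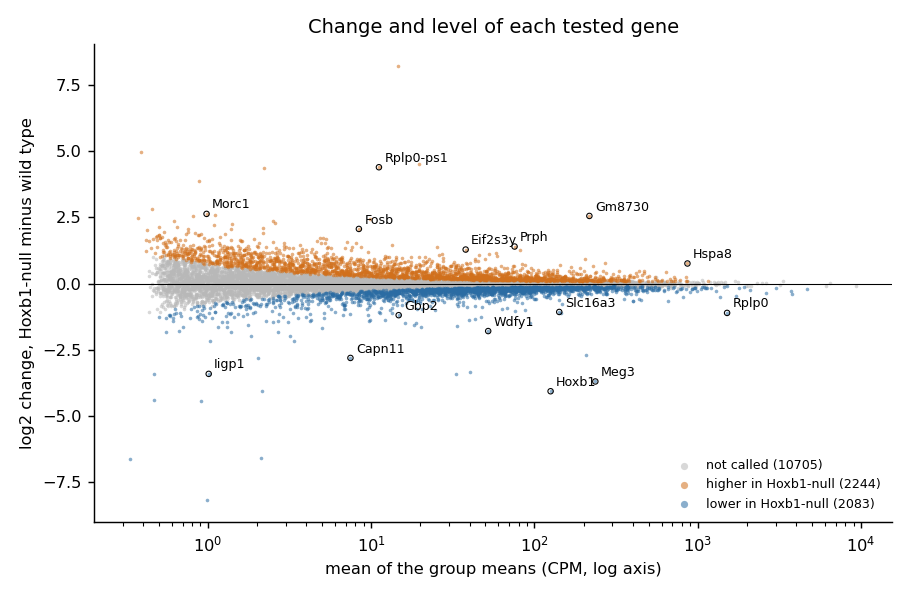
Each point is 1 of 15032 tested genes, with the mean of its 2 group means (CPM, log axis) across and its log2 change of null minus wild type upwards. Colour marks the 2244 genes that rose and the 2083 that fell, large rises lie mostly at low levels, and Hoxb1 and Meg3 lie lowest among the well expressed genes.

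The largest falls among named genes with at least 5 CPM in the group where they were higher were led by Meg3, a maternally expressed noncoding RNA, followed by genes of diverse function. Capn11, a calpain protease, was at 13.8, 11.7 and 13.6 CPM in wild-type and 2.17, 1.77 and 1.66 CPM in null libraries (log2 change -2.80, SE 0.14, adjusted p = 6.28e-13). Wdfy1, an endosomal protein with a FYVE domain, was at 78.8, 81.8 and 81.6 CPM in wild-type and 21.3, 25.2 and 23.6 CPM in null libraries (log2 change -1.79, SE 0.059, adjusted p = 3.77e-16). In both genes every null library was under every wild-type library by a wide margin. Adam23, a cell surface disintegrin protein, fell from 50.4 ± 3.60 to 16.8 ± 1.74 CPM (mean ± SD, n = 3 in each group, as in the values that follow). Mpi, which makes mannose 6-phosphate for protein glycosylation, fell from 27.7 ± 1.39 to 9.96 ± 0.563 CPM, and Heph, a ferroxidase of iron export, from 6.17 ± 0.319 to 2.31 ± 0.232 CPM. Dnah8, a heavy chain of axonemal dynein, fell from 5.53 ± 0.306 to 1.24 ± 0.333 CPM, Ltb, a cytokine of the tumour necrosis factor family, from 5.08 ± 1.06 to 1.28 ± 0.203 CPM, Sfi1, a centrosomal protein, from 17.5 ± 0.683 to 6.79 ± 0.571 CPM, and Rsad1, a radical SAM protein, from 14.1 ± 0.0911 to 5.49 ± 0.681 CPM. Psmb8, also among them, belongs to the antigen presentation genes described with the interferon genes.

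The 12 largest rises among named genes with at least 5 CPM in the group where they were higher included immune cell, neuronal and chromatin genes. Most of these were under 5 CPM in wild type and passed this floor through the null group. Prph, the neuronal intermediate filament peripherin, was at 44.2, 41.1 and 39.0 CPM in wild-type and 117, 100.7 and 111 CPM in null libraries (log2 change 1.404, SE 0.059, adjusted p = 5.48e-14). Nckap1l, a subunit of the actin-regulating WAVE complex of blood cells, was at 2.75, 2.34 and 2.39 CPM in wild-type and 8.74, 6.60 and 8.69 CPM in null libraries (log2 change 1.68, SE 0.15, adjusted p = 2.27e-08). Aoah, which inactivates bacterial lipopolysaccharide, was at 2.81, 1.77 and 2.23 CPM in wild-type and 8.27, 7.28 and 6.86 CPM in null libraries (log2 change 1.74, SE 0.16, adjusted p = 2.47e-08). The genotypes did not overlap in any of these. Trim66, a chromatin reader of the TRIM family, rose from 2.40 ± 0.362 to 7.76 ± 0.829 CPM, Gpr50, an orphan receptor related to the melatonin receptors, from 2.27 ± 0.145 to 7.02 ± 1.12 CPM, Ccdc126 from 2.51 ± 0.172 to 7.33 ± 0.467 CPM, and Unc45b, a myosin chaperone, from 4.19 ± 0.971 to 11.99 ± 1.34 CPM. Fosb, an immediate early transcription factor, had the largest change of the 12 (log2 change 2.07, adjusted p = 0.00838), with 14.9, 17.1 and 8.69 CPM in null libraries against 3.06, 2.34 and 4.40 CPM, so that null replicate 3 lay between the other null libraries and wild type. Its paralogue Fos rose from 32.2 to 57.9 CPM and Fosl1 from 6.46 to 10.7 CPM, while Gadd45b, another immediate early gene, fell from 8.76 to 5.001 CPM. The remaining 4 of the 12, Lox, Dnmt3l, Hrk and Trib3, are given with their groups.

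Genes of 4-fold change or more numbered 42, 25 higher and 17 lower, and several of them were named after their values were seen. Of the 42, 7 (16.7%) were pseudogenes, which made up 1024 (6.81%) of the tested genes, and 3 were Hox genes. Npy, which encodes the neuropeptide Y precursor, held 11 counts over the wild-type libraries and 228 over the null libraries, or 0.183, 0.0956 and 0.326 CPM in wild-type and 4.16, 4.31 and 4.23 CPM in null libraries (log2 change 4.38, SE 0.28, adjusted p = 9.39e-11). Rph3a, a synaptic vesicle protein that binds Rab proteins, held 6 and 90 counts (log2 change 3.87, SE 0.42, adjusted p = 3.58e-07). Cyp1a1, a cytochrome P450 induced through the aryl hydrocarbon receptor, held 6 and 43 counts, and Slc6a11, a GABA transporter, 13 and 75. On the falling side, Tagap, a GTPase activating protein of T cells, held 48 and 4 counts. These genes were near absent in 1 genotype and low in the other.

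Meg3, on the maternal chromosome of the imprinted Dlk1 to Dio3 region, is a long noncoding RNA transcribed together with the small RNAs of the region. Meg3 (mm10 chromosome 12, 109541001 to 109571726, plus strand) was at 429, 439.9 and 445 CPM in wild-type and 33.8, 32.8 and 35.3 CPM in null libraries (log2 change -3.69, SE 0.044, adjusted p = 6.7e-25), the largest fall at 5 CPM or more after that of Hoxb1. The snoRNA gene Gm24895 in the same region was at 3.49, 3.54 and 5.22 CPM in wild-type and 0.235, 0.364 and 0.114 CPM in null libraries (log2 change -4.04, SE 0.32, adjusted p = 2.43e-09), and Mir410 held 51 counts over the wild-type and 2 over the null libraries. The libraries were made by poly(A) selection, and whether reads at these small RNA genes came from a longer transcript was not tested. Dlk1, the paternally expressed gene at the other side, was at 9.17, 11.3 and 9.41 CPM in wild-type and 7.97, 8.99 and 9.04 CPM in null libraries and missed the threshold (adjusted p = 0.159). Dio3, a deiodinase gene at the end of the region, held 19 counts over the wild-type and 38 over the null libraries (log2 change 1.04, adjusted p = 0.0445), a call lost in 8 alternatives, among them DESeq2 (adjusted p = 0.237). Rian and Mirg were not analysed here. Other imprinted genes moved in both directions. Of 18 tested maternally expressed genes 4 fell and 5 rose (2 without wild-type replicate 3), with a median of -0.054, and of 22 paternally expressed genes 8 fell and 3 rose, with a median of -0.12. Over all tested genes 13.9% fell and 14.9% rose. H19, a maternally expressed noncoding RNA, fell from 15.1 ± 1.18 to 7.92 ± 0.455 CPM, and Igf2, a growth factor expressed from the paternal copy beside it, fell from 105 ± 6.65 to 88.9 ± 2.93 CPM (adjusted p = 0.000708). Plagl1, a paternally expressed zinc finger gene, rose from 14.7 ± 0.310 to 22.6 ± 0.918 CPM, and Ascl2, a maternally expressed transcription factor, from 1.78 ± 0.284 to 3.44 ± 0.538 CPM.

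Several genes of the interferon response were lower, among them the GTPases that attack intracellular pathogens. Interferons act through STAT and IRF transcription factors, which bind short elements in front of their target genes. Of 20 listed interferon response genes, 7 fell and 3 rose (median log2 change -0.16), compared with 13.9% and 14.9% of all genes. A wider look, in groups put together after the values were seen, found that all 8 tested interferon-inducible GTPases fell (median -1.16), 5 of them at least 2-fold, though the calls of Gbp4 and Gbp9 were lost with DESeq2 (adjusted p = 0.057 for both), and that of Gbp9 also when wild-type replicate 2, wild-type replicate 3 or null replicate 2 was left out (0.0694, 0.0632 and 0.0707). Of 21 genes of antigen presentation and the immunoproteasome 13 fell and 2 rose (median -0.44), and of 35 innate immune sensors and effectors 14 fell and 3 rose (median -0.17). The count of innate risers was 5 with upper-quartile scaling, the stricter filter, all 18 libraries or without wild-type replicate 3, and neither of the 2 antigen presentation risers was called with DESeq2 or without wild-type replicate 3.

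The proximal promoters of the GTPases shared a sequence. RefSeq promoter windows (build GRCm38.p6, the 250 bases before a gene's start) were found for 5 of the 8 GTPases, and all 5, namely Gbp2, Gbp3, Gbp7, Irgm1 and Irgm2, held the interferon-stimulated response element, searched on both strands as GAAA, any 2 bases and GAAA. The element was in 2.82% of the windows of tested genes and in 2.98% of 32851 windows, and in 2 of 18 antigen presentation windows (H2-T22 and B2m, neither of which was called). The interferon gamma activated site, searched as TTCNNNGAA, which reads alike on both strands, was in 8 of 54 windows (14.8%) of genes that fell at least 2-fold, compared with 6.90% of the windows of tested genes. The GTPases were grouped as interferon-inducible, after the values were seen, so their share with the interferon-stimulated response element could come from that choice. A match describes the letters and is neither a shown binding site nor a cause. The stretches around the elements of the 3 most changed GTPases with a window, and around the activated site of Irf1, the transcription factor of the response that fell, are printed 5′ to 3′ with the matches in capitals, and in Gbp3 2 overlapping matches are joined.
Gbp2 (chr3:142620574-142620643, plus strand): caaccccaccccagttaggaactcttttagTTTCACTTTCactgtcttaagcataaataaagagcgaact
Gbp3 (chr3:142559969-142560043, plus strand): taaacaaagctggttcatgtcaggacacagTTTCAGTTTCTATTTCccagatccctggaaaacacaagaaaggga
Gbp7 (chr3:142530253-142530322, plus strand): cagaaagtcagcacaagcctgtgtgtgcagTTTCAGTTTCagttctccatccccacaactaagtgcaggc
Irf1 (chr11:53769894-53769962, plus strand): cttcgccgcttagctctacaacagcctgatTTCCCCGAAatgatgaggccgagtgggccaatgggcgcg

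Among the guanylate-binding proteins, Gbp2 was at 19.02, 19.07 and 23.3 CPM in wild-type and 8.09, 8.32 and 10.6 CPM in null libraries (log2 change -1.19, SE 0.11, adjusted p = 2.58e-08), and Gbp3 was at 2.20, 2.34 and 2.66 CPM in wild-type and 0.938, 1.35 and 0.972 CPM in null libraries (log2 change -1.13, SE 0.22, adjusted p = 0.000444). Gbp7 was at 1.77, 2.06 and 2.66 CPM in wild-type and 0.645, 0.884 and 0.286 CPM in null libraries (log2 change -1.81, SE 0.29, adjusted p = 6.42e-05). Null libraries were below all wild-type libraries in each. Of the immunity-related GTPases, Irgm2 fell from 8.93, 7.84 and 10.6 to 3.58, 5.25 and 5.09 CPM, Irgm1 from 6.73, 7.36 and 7.07 to 5.51, 4.89 and 4.75 CPM, and Iigp1 held 102 counts over the wild-type and 9 over the null libraries. Irf1 itself was at 45.2, 45.6 and 44.4 CPM in wild-type and 28.6, 26.5 and 29.7 CPM in null libraries (log2 change -0.67, SE 0.06, adjusted p = 1.8e-08). Stat2 and Irf9, which form part of the factor that carries the type I interferon signal to DNA, missed the threshold (adjusted p = 0.22 and 0.292).

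The immunoproteasome and the loading of peptides onto major histocompatibility proteins were lower at several steps, though not at every one. Psmb8, an inducible proteasome subunit, was at 6.30, 8.89 and 7.50 CPM in wild-type and 2.29, 2.03 and 2.97 CPM in null libraries (log2 change -1.66, SE 0.16, adjusted p = 9.18e-08), and Psmb10, another, fell from 26.6 to 18.03 CPM. Tapbp, or tapasin, which loads peptides in the endoplasmic reticulum, was at 111, 113 and 125.8 CPM in wild-type and 53.5, 53.1 and 68.3 CPM in null libraries (log2 change -0.999, SE 0.10, adjusted p = 6.21e-05). Erap1, which trims these peptides, was at 29.1, 28.5 and 31.5 CPM in wild-type and 16.6, 15.96 and 16.8 CPM in null libraries (log2 change -0.85, SE 0.071, adjusted p = 6.86e-09). The genotypes were separate in all 4. The class I heavy chain genes H2-K1, H2-D1 and H2-Q4 fell from 171 to 134 CPM, from 52.5 to 37.7 CPM and from 28.9 to 21.4 CPM. Reads of such near-identical family members can be split in counting, so that their single values are uncertain. B2m, the light chain that all class I molecules share, was at 31.7, 26.8 and 26.8 CPM in wild-type and 28.1, 24.2 and 23.4 CPM in null libraries and missed the threshold (adjusted p = 0.122, and 0.0229 without null replicate 1). Tap1, a subunit of the transporter that carries peptides into the endoplasmic reticulum, rose from 38.04 to 43.9 CPM (adjusted p = 0.0197), and the class I gene H2-Q2 from 2.52 to 3.46 CPM (adjusted p = 0.0346), and both calls were lost with DESeq2 and in at least 3 other alternatives. Nlrc5, a transactivator of class I genes, was at 20.4, 21.8 and 23.4 CPM in wild-type and 22.1, 21.1 and 20.3 CPM in null libraries with the genotypes mixed (adjusted p = 0.645).

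Not every immune gene was lower. Oasl2, an interferon-induced protein related to the oligoadenylate synthetases, fell from 3.55, 3.35 and 3.75 to 0.528, 0.208 and 0.801 CPM (log2 change -2.80, SE 0.27, adjusted p = 5.91e-08), Helz2, a helicase, from 7.04 to 3.30 CPM, Trim12a from 4.55 to 1.67 CPM, and Nod1, a sensor of bacterial peptidoglycan, from 1.78 to 0.648 CPM. Naip5 and Naip6, sensors of bacterial flagellin that have near-identical relatives, fell from 1.03 to 0.297 CPM and from 2.64 to 0.899 CPM. Their adaptor in the inflammasome, Nlrc4, moved the other way, at 0.612, 0.574 and 0.435 CPM in wild-type and 2.23, 2.39 and 2.12 CPM in null libraries (log2 change 2.05, SE 0.25, adjusted p = 2.17e-06). Bst2 or tetherin, which holds enveloped viruses at the cell surface, rose from 42.8 to 53.5 CPM and Ifitm1, a membrane protein that restricts virus entry, from 197 to 225 CPM. Ifih1 and Oas1a, sensors of viral RNA that interferon induces, missed the threshold (adjusted p = 0.271 and 0.142).

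**Figure D2:**
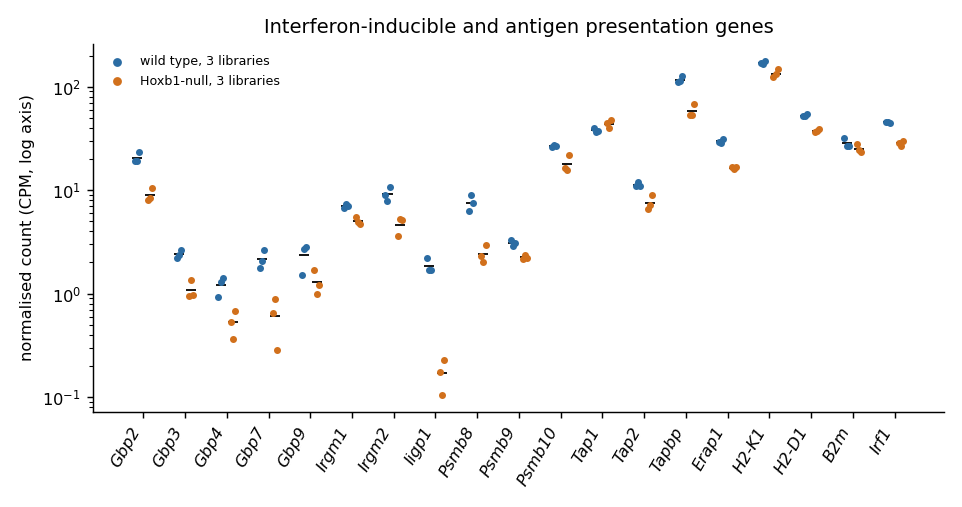
Levels of 19 GTPase, antigen presentation and related genes (CPM, log axis) are plotted with a point for each of the 3 wild-type and 3 null libraries and a black line at each group mean. The null points of Gbp2, Psmb8, Tapbp and Irf1 lie under all their wild-type points, while those of B2m overlap.

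A cluster of zinc finger genes on chromosome 4, between 145510759 and 147848366, was higher. These genes encode KRAB zinc finger proteins, of a family known for repressing transposable elements, and the cluster was picked after the values were seen. Of 17 tested members 14 rose and 1 fell, with a median log2 change of 0.79, compared with 21 risers and 37 fallers of 317 Zfp genes elsewhere (median -0.03). With DESeq2 and without wild-type replicate 2, 9 cluster members were higher, and elsewhere 11 were higher in both settings. Without wild-type replicate 1, 13 of the other Zfp genes were higher, and without wild-type replicate 2, 23 were lower. The single call of a fall, Zfp933, was lost in 6 alternatives, among them DESeq2.

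Zfp979 was at 15.2, 15.7 and 16.2 CPM in wild-type and 27.6, 28.5 and 26.5 CPM in null libraries (log2 change 0.81, SE 0.071, adjusted p = 1.64e-08), and Zfp981 was at 1.71, 1.48 and 1.63 CPM in wild-type and 4.75, 4.003 and 4.06 CPM in null libraries (log2 change 1.41, SE 0.17, adjusted p = 1.87e-06). Zfp978 was at 0.489, 0.669 and 0.816 CPM in wild-type and 2.29, 2.18 and 1.83 CPM in null libraries (log2 change 1.65, SE 0.25, adjusted p = 3.36e-05). In these members all null libraries exceeded all wild-type libraries. Zfp600 had 11 counts over the wild-type and 57 over the null libraries (log2 change 2.38, SE 0.40, adjusted p = 8.2e-05), and Zfp534, Zfp988 and Zfp985 rose from 1.12 to 2.94 CPM, from 2.95 to 5.15 CPM and from 3.97 to 6.56 CPM. Smaller rises were measured for Zfp991 (log2 change 0.43, call lost with DESeq2 at an adjusted p of 0.0505) and Zfp992 (0.38, lost without null replicate 2 at 0.0623), and Zfp986 missed the threshold (adjusted p = 0.393). Members of the cluster are similar in sequence, and how reads that match several of them were counted was not given in the sources used here, so single members are uncertain. Trim28, the corepressor that KRAB zinc finger proteins recruit, was at 1286, 1322 and 1288 CPM in wild-type and 1272, 1343 and 1424 CPM in null libraries (adjusted p = 0.319). Outside the cluster, Zfp951 on chromosome 5 held 17 counts over the wild-type and 102 over the null libraries (log2 change 2.61, SE 0.32, adjusted p = 1.67e-06).

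**Figure D3:**
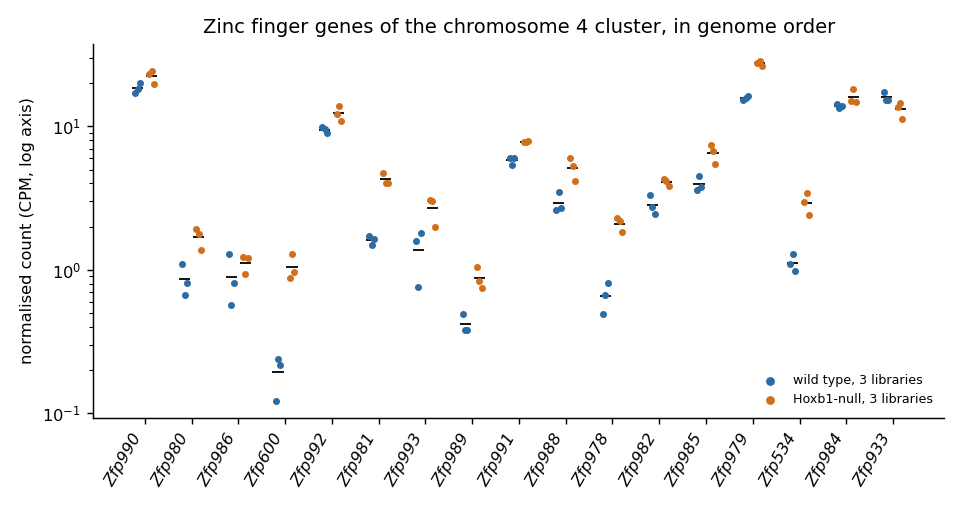
Levels of the 17 tested zinc finger genes of the chromosome 4 cluster (CPM, log axis) are plotted in their order along the chromosome, with a point for each of the 3 wild-type and 3 null libraries and a black line at each group mean. The null means lie above the wild-type means in every gene but Zfp933, and by the widest margin in Zfp600.

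Genes of germ cells and meiosis were higher from low levels. Of 12 tested genes in the list of germline and 2-cell stage genes, 8 rose (5 with DESeq2) and 0 fell, with a median log2 change of 0.98. Of 25 further germ cell genes collected after the values were seen, 16 rose (9 with the stricter filter) and 1 fell (median 1.02). Among all tested genes 14.9% rose and 13.9% fell. Rises also outnumbered falls in the lowest level group, where 530 of 3007 genes rose and 142 fell (median 0.14). Ddx4, the RNA helicase VASA of germ cells, was at 9.97, 7.50 and 8.37 CPM in wild-type and 18.9, 17.1 and 15.8 CPM in null libraries (log2 change 1.01, SE 0.10, adjusted p = 1.31e-07). Taf7l, a germ cell form of a general transcription factor subunit, was at 1.59, 1.10 and 1.85 CPM in wild-type and 5.22, 4.003 and 3.77 CPM in null libraries (log2 change 1.53, SE 0.20, adjusted p = 4.43e-06). Tex19.1, which protects the germ line from retrotransposons, was at 1.96, 1.43 and 1.69 CPM in wild-type and 4.22, 3.64 and 5.20 CPM in null libraries (log2 change 1.37, SE 0.19, adjusted p = 7.55e-06), and Mael, of the piRNA pathway, rose from 1.18 to 2.69 CPM. In each gene all null libraries were above all wild-type libraries.

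Dnmt3l, the catalytically inactive partner of the DNA methyltransferases in germ cells and early embryos, was at 2.20, 2.68 and 3.05 CPM in wild-type and 8.33, 7.23 and 7.78 CPM in null libraries (log2 change 1.54, SE 0.14, adjusted p = 2.96e-08). Cpeb1, which binds mRNA and controls its polyadenylation in oocytes, was at 30.8, 26.9 and 30.1 CPM in wild-type and 65.8, 59.5 and 62.5 CPM in null libraries (log2 change 1.10, SE 0.061, adjusted p = 6.27e-12) and was among the better expressed genes to differ 2-fold. D1Pas1, a helicase gene of the testis related to Ddx3y, was at 1.16, 0.813 and 0.489 CPM in wild-type and 4.40, 4.47 and 3.60 CPM in null libraries (log2 change 2.35, SE 0.23, adjusted p = 6.63e-08). The genotypes were separate in all 3. Among meiotic genes, Stag3 and Rec8, subunits of the meiotic cohesin ring, rose from 9.71 to 13.96 CPM and from 9.59 to 12.8 CPM, and Syce1, of the synaptonemal complex, rose from 0.958 to 2.57 CPM. Rbmxl2, a testis RNA-binding protein, rose from 4.40 to 8.91 CPM, and Morc1, which silences transposons in male germ cells, held 15 counts over the wild-type and 92 over the null libraries. Dmc1, the meiotic recombinase, and Kit, a receptor of germ cell precursors, missed the threshold (adjusted p = 0.403 and 0.399). Among genes of DNA methylation and Polycomb, Cbx7, a subunit of Polycomb complexes, rose from 76.8 ± 3.02 to 105 ± 8.14 CPM, and Kmt2a, the methyltransferase that keeps Hox genes active, fell from 138 ± 2.83 to 97.7 ± 6.08 CPM.

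Targets of ATF4, the transcription factor of the integrated stress response, were higher, as was Atf4 itself. ATF4 is translated when initiation is slowed by amino acid shortage or misfolded protein, and it drives genes of amino acid supply and of cell death. Of 18 tested stress regulators 14 rose and 0 fell (1 without null replicate 3), with a median log2 change of 0.48. Of 24 ATF4 targets of amino acid and one-carbon metabolism 15 rose and 3 fell (median 0.24), and of 23 aminoacyl-tRNA synthetases 8 rose and 1 fell (median 0.088), the fall being Kars, whose call was lost in 6 alternatives, among them upper-quartile scaling and each fit without a wild-type library.

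The element that C/EBP and ATF proteins bind, searched as TGATGNAA on both strands, was in 5 of 17 promoter windows of the stress regulators (29.4%; Chac1, Nupr1, Vldlr, Jdp2 and Herpud1) and in 5 of 19 windows of the amino acid genes (26.3%; Asns, Pycr1, Slc7a11, Got1 and Pck2). Of these carriers Vldlr and Got1 were not called and Asns and Pycr1 fell, Asns with a call lost in 7 alternatives, so that 2 of the 5 amino acid genes rose. The calls of Jdp2 and Herpud1, which rose, were lost in 4 and 6 alternatives, among them DESeq2. The element was in 2.35% of windows of tested genes and in 3.45% of all windows. Because the lists were written as ATF4 regulators and targets, a high share of the element could come from that choice. The joint site of Hox and PBX proteins, searched as TGATNNAT on both strands, was in 6 of 19 windows of the amino acid genes (31.6%), compared with 4.42% of windows of tested genes and 7.68% of all windows. It was in 1 of 17 windows of the stress regulators. Both motifs can begin with the letters TGAT, but their last letters differ, so the same bases cannot match both. No window of these lists held both motifs, which therefore does not tell the 2 kinds of site apart. Among windows of genes that changed at least 2-fold, the Hox and PBX letters were in 3 of 54 that fell (5.56%) and in 15 of 228 that rose (6.58%). The stretches in front of Chac1 and Nupr1, the listed stress genes that carried the element and changed most, are printed with the match in capitals.
Chac1 (chr2:119351019-119351086, plus strand): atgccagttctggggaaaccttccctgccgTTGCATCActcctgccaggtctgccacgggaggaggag
Nupr1 (chr7:126625543-126625610, minus strand): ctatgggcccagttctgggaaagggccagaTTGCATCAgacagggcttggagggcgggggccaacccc

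Chac1, which degrades glutathione and is among the most inducible ATF4 targets, was at 3.55, 3.39 and 2.99 CPM in wild-type and 8.21, 6.76 and 7.15 CPM in null libraries (log2 change 1.15, SE 0.13, adjusted p = 9.64e-07). Nupr1, a stress-induced chromatin protein, was at 2.997, 3.54 and 3.48 CPM in wild-type and 6.68, 8.21 and 6.35 CPM in null libraries (log2 change 1.08, SE 0.14, adjusted p = 4.09e-06). Trib3, a pseudokinase that feeds back on ATF4, was at 14.6, 14.01 and 13.2 CPM in wild-type and 39.9, 35.8 and 34.1 CPM in null libraries (log2 change 1.39, SE 0.076, adjusted p = 4.16e-12). Atf4 was at 271, 255 and 263 CPM in wild-type and 343, 332 and 342 CPM in null libraries (log2 change 0.37, SE 0.037, adjusted p = 1.09e-07). The genotypes did not overlap in these 4 genes. Among transporters that bring amino acids into the cell, Slc7a11 (cystine), Slc6a9 (glycine) and Slc7a3 (cationic amino acids) rose from 3.58 to 5.66 CPM, from 9.68 to 15.2 CPM and from 27.1 to 39.7 CPM. The synthetases Aars, Nars, Tars and Sars, which charge alanine, asparagine, threonine and serine, rose by log2 0.32, 0.25, 0.23 and 0.19. Pycr1, of proline synthesis, was an exception among the amino acid genes and fell from 22.4 to 18.3 CPM.

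Some genes of protein folding also rose. Of 25 listed genes of the unfolded protein and heat shock responses 14 rose and 1 fell (median 0.11), but the count of risers was 6, 8 and 7 without wild-type replicate 1, 2 and 3 and 9 without null replicate 2, and the single faller, Edem1, was lost in 7 alternatives, among them DESeq2. Hspa8, the constitutive cytosolic HSC70 chaperone, was at 655, 651 and 617 CPM in wild-type and 1058, 1112 and 1094 CPM in null libraries (log2 change 0.76, SE 0.035, adjusted p = 2.07e-13), and the genotypes were well apart. Hspa5, the chaperone BiP of the endoplasmic reticulum, rose from 653 ± 7.98 to 784 ± 15.8 CPM, a log2 change of 0.26 (SE 0.033, adjusted p = 2.64e-06).

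Many targets of p53 were also higher. Of 26 listed genes 15 rose and 1, Zmat3, fell (0 without wild-type replicate 1 or null replicate 2), with a median log2 change of 0.17. Pmaip1 or NOXA, a pro-apoptotic BH3-only protein, was at 141, 133 and 146 CPM in wild-type and 269, 262 and 267 CPM in null libraries (log2 change 0.93, SE 0.041, adjusted p = 7.93e-14). Mdm2, the ubiquitin ligase that p53 induces against itself, was at 229, 209 and 219.6 CPM in wild-type and 343, 299 and 283 CPM in null libraries (log2 change 0.49, SE 0.06, adjusted p = 3.3e-05), and Perp, a membrane protein of p53-dependent death, was at 81.5, 72.0 and 77.8 CPM in wild-type and 109.8, 100.2 and 108 CPM in null libraries (log2 change 0.46, SE 0.051, adjusted p = 4.86e-07). All null libraries exceeded all wild-type libraries. Cdkn1a or p21, a cell cycle inhibitor, was at 362, 340.0 and 332 CPM in wild-type and 364, 356 and 364 CPM in null libraries and missed the threshold (adjusted p = 0.189).

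Of 22 tested genes of the BCL2 family and of apoptosis, which set the threshold of the mitochondrial death pathway, 4 rose and 4 fell, shares near the 14.9% and 13.9% of all tested genes, with 2 fallers under DESeq2 or when wild-type or null replicate 2 was left out, and 1 without wild-type replicate 3. Hrk, a BH3-only activator best known from neurons, was at 7.77, 6.74 and 7.02 CPM in wild-type and 22.7, 19.2 and 16.5 CPM in null libraries (log2 change 1.45, SE 0.11, adjusted p = 2.53e-09). All null libraries were above wild type, and null replicate 3 was the lowest of them. Mcl1, which protects cells from death, rose from 253 to 283 CPM, and Diablo, a mitochondrial protein that counters caspase inhibitors, fell from 73.8 to 58.3 CPM.

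Glycolysis genes were lower at most steps. Of 24 tested genes 16 fell and 1 rose, with a median log2 change of -0.26, and their summed level was 12104 to 12959 CPM in wild-type and 9141 to 10463 CPM in null libraries. Slc16a3, the transporter MCT4 that exports lactate, was at 183, 197 and 196 CPM in wild-type and 73.2, 93.7 and 108 CPM in null libraries (log2 change -1.07, SE 0.14, adjusted p = 0.00387). Tpi1, triose phosphate isomerase, was at 453, 511 and 499.9 CPM in wild-type and 289, 323 and 332 CPM in null libraries (log2 change -0.63, SE 0.051, adjusted p = 7.15e-08). Pkm, pyruvate kinase, was at 3978, 4222 and 4015 CPM in wild-type and 3182, 3379 and 3658 CPM in null libraries (log2 change -0.26, SE 0.041, adjusted p = 8.09e-05). In Slc16a3 and Pkm null replicate 3 lay nearest to wild type, and no null library reached the wild-type range. Pgk1 and Pfkl, kinases of the pathway, fell from 65.2 to 39.4 CPM and from 486 to 312 CPM. Eno2, the neuronal enolase, was the exception and rose from 29.1 ± 2.64 to 42.1 ± 2.65 CPM, a log2 change of 0.54 (SE 0.068, adjusted p = 2.94e-06).

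Of 23 tested hypoxia response genes 8 fell and 4 rose (2 under DESeq2 or when any of wild-type replicates 2 and 3 and null replicates 1 and 2 was left out), with a median of -0.15. The shares over all tested genes were 13.9% lower and 14.9% higher. Bnip3, a mitophagy receptor induced in low oxygen, was at 22.8, 29.3 and 28.2 CPM in wild-type and 13.02, 15.1 and 13.8 CPM in null libraries (log2 change -0.94, SE 0.09, adjusted p = 7.29e-08). Egln1, the oxygen-sensing hydroxylase PHD2, fell from 51.4 to 35.0 CPM, and Fam162a, another HIF target, from 90.5 to 61.9 CPM. Ndrg1, also a known HIF target, moved the other way, at 35.5, 33.7 and 34.1 CPM in wild-type and 72.0, 61.3 and 62.3 CPM in null libraries (log2 change 0.92, SE 0.062, adjusted p = 1.91e-10). The direction was thus not shared by the whole list.

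Lipid synthesis changed in single genes. Of 24 cholesterol genes 5 rose (2 without wild-type replicate 2, and 3 without wild-type replicate 3 or null replicate 2) and 3 fell, and of 13 fatty acid synthesis genes 1 rose and 5 fell. Beside these, 14.9% of all tested genes rose and 13.9% fell. Hmgcs1, an early enzyme of cholesterol synthesis, fell from 408 ± 5.42 to 315 ± 8.01 CPM. Acaca, acetyl-CoA carboxylase, fell from 61.2 ± 0.237 to 50.2 ± 1.75 CPM and Scd2, a fatty acid desaturase, from 2255 ± 15.6 to 1935 ± 117 CPM.

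Genes of mitosis were slightly but regularly lower. Of 25 tested genes 15 fell and 0 rose (median -0.14), and of 29 replication genes 9 fell and 1 rose (median -0.044). The single riser, E2f1, was lost in 6 alternatives, among them DESeq2. Mki67, the proliferation antigen Ki-67, was at 293, 321 and 319 CPM in wild-type and 244, 248 and 224 CPM in null libraries (log2 change -0.38, SE 0.044, adjusted p = 8.64e-07). Cenpf, a kinetochore protein, was at 222, 225 and 222 CPM in wild-type and 172, 179 and 158 CPM in null libraries (log2 change -0.40, SE 0.043, adjusted p = 3.28e-07). Ccnb2, a cyclin of the entry into mitosis, was at 99.9, 102 and 102 CPM in wild-type and 77.7, 84.5 and 82.9 CPM in null libraries (log2 change -0.31, SE 0.045, adjusted p = 1.83e-05). Null libraries were below all wild-type libraries in all 3. Nusap1 and Top2a, of spindle and chromosome structure, fell from 51.1 to 40.3 CPM and from 747 to 667 CPM. The G1 cyclins Ccnd2 and Ccnd3 fell from 181 to 147.9 CPM and from 137 to 111 CPM, whereas Ccnd1 was at 438, 427 and 428 CPM in wild-type and 442, 433 and 441 CPM in null libraries (adjusted p = 0.615). The libraries were made by poly(A) selection, and of 28 tested histone genes, many of which make transcripts without a poly(A) tail, 11 fell (7 with DESeq2 or without wild-type replicate 2, and 6 without wild-type replicate 3).

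Genes that mark the time course of the trunk were lower without exception in sign. Of 11 tested genes of this list 7 fell and 0 rose, all 11 log2 changes were below 0, and the median was -0.23. Igf2bp2 and Igf2bp1, RNA-binding proteins of the Lin28 pathway that are high in early progenitors, were at 123, 116 and 116 CPM in wild-type and 78.1, 80.5 and 82.0 CPM in null libraries (log2 change -0.56, SE 0.045, adjusted p = 3.34e-09) and at 1123, 1128 and 1097 CPM in wild-type and 1012, 989 and 937 CPM in null libraries (log2 change -0.19, SE 0.035, adjusted p = 0.000252). The genotypes were separate in both. Gdf11, a signal that ends trunk growth, was at 12.97, 14.2 and 13.9 CPM in wild-type and 10.96, 10.7 and 9.49 CPM in null libraries (log2 change -0.40, SE 0.092, adjusted p = 0.00198). Lin28a was at 984.97, 998 and 987 CPM in wild-type and 905, 954 and 948 CPM in null libraries and missed the threshold (adjusted p = 0.0696), which it passed without null replicate 3 (0.00689) and without a filter on low counts (0.042). Outside this list, 3 of 11 tested Hox cofactor genes fell and 2 rose (0 with DESeq2). Pbx2, among those that fell, went from 109.1 to 95.1 CPM.

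Several Wnt and Notch signalling genes of the NMP and presomitic state were lower, while 13.9% of all tested genes fell and 14.9% rose. Of 19 tested presomitic and somitic mesoderm genes, 6 fell and 4 rose (median -0.10), and 2 rose and 0 fell at least 2-fold. Only 2 of these genes were called higher under DESeq2, with the stricter filter, or without wild-type replicate 1 or 3. Of 30 tested Wnt ligands and targets 11 fell and 5 rose (median -0.10). Wnt3a, the ligand that sustains NMPs, was at 65.7, 77.6 and 73.0 CPM in wild-type and 42.04, 54.8 and 52.7 CPM in null libraries (log2 change -0.53, SE 0.091, adjusted p = 0.00107), and Rspo3, a secreted amplifier of Wnt signals, was at 122, 126.1 and 117 CPM in wild-type and 79.2, 84.8 and 78.7 CPM in null libraries (log2 change -0.59, SE 0.046, adjusted p = 2.61e-09). The ligand Wnt4 and the R-spondin receptor Lgr5 rose from 5.42 to 8.89 CPM and from 5.82 to 8.21 CPM. Of 20 Notch genes 8 fell and 3 rose (5 with all 18 libraries; median -0.12). The receptor Notch1 was at 481, 486 and 454 CPM in wild-type and 348, 377 and 374 CPM in null libraries (log2 change -0.37, SE 0.039, adjusted p = 2.24e-07), and Hes7, the oscillating repressor of the segmentation clock, was at 35.2, 36.5 and 31.5 CPM in wild-type and 21.9, 21.1 and 20.7 CPM in null libraries (log2 change -0.70, SE 0.069, adjusted p = 9.76e-08). Nrarp, a Notch target that feeds back on the pathway, fell from 63.6 to 40.9 CPM. For all of these the null libraries lay below wild type, and Jag2, a Notch ligand, and Dtx1, a Notch-binding ubiquitin ligase, rose from 67.6 to 95.8 CPM and from 5.86 to 10.6 CPM.

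Single FGF, TGF-beta and hedgehog genes changed, compared with 14.9% risers and 13.9% fallers among all tested genes. Of 24 FGF genes 5 rose (2 under DESeq2 or when wild-type replicate 2 was left out, and 3 without wild-type replicate 3) and 5 fell. Fgf8, a tail bud ligand, was at 63.6, 67.7 and 68.1 CPM in wild-type and 20.6, 27.97 and 34.6 CPM in null libraries (log2 change -1.26, SE 0.16, adjusted p = 0.00187), with null replicate 3 the closest to wild type. The receptor Fgfr1 fell from 618 to 523 CPM, and the weakly expressed Fgfr4 rose from 1.03 to 2.52 CPM. Of 32 BMP, TGF-beta and Nodal genes 11 rose (6 with DESeq2) and 8 fell. Nodal rose from 58.4 ± 2.89 to 79.4 ± 7.55 CPM, a log2 change of 0.44 (SE 0.06, adjusted p = 7.6e-06), while Lefty1, its secreted antagonist, fell from 25.03 ± 3.16 to 12.97 ± 3.86 CPM, a log2 change of -0.95 (SE 0.21, adjusted p = 0.0172). Of the secreted BMP antagonists Grem1 rose from 1.03 to 2.42 CPM and Nog fell from 8.24 to 5.69 CPM. Of 13 hedgehog genes 3 rose and 1 fell, and of its effectors Gli1 rose from 7.39 to 10.8 CPM and Gli2 fell from 14.6 to 9.22 CPM.

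Lists of other cell types were run to see which identities moved with genotype. Over all tested genes, 14.9% rose and 13.9% fell. Smooth and skeletal muscle genes were lower in 7 of 15 cases (4 under DESeq2 or when wild-type replicate 2 was left out) and higher in 4 (2 in the same settings and without wild-type replicate 3), and their summed level was 154 to 159.99 CPM in wild-type and 112 to 123 CPM in null libraries. Tagln, an actin-binding protein of contractile cells, was at 82.4, 83.0 and 87.1 CPM in wild-type and 43.8, 41.3 and 43.8 CPM in null libraries (log2 change -0.97, SE 0.051, adjusted p = 1.66e-12), and Acta1, skeletal alpha-actin, was at 6.54, 5.59 and 6.20 CPM in wild-type and 2.81, 1.46 and 2.92 CPM in null libraries (log2 change -1.36, SE 0.18, adjusted p = 5.74e-06). Endothelium and blood genes rose in 4 of 13 cases and fell in 1, with a summed level of 176 to 183 and of 154 to 159.9 CPM. Kdr, a VEGF receptor, was at 17.3, 14.7 and 14.96 CPM in wild-type and 21.5, 24.5 and 30.9 CPM in null libraries (log2 change 0.72, SE 0.12, adjusted p = 0.000287), and Tek, the angiopoietin receptor, was at 2.20, 1.63 and 1.85 CPM in wild-type and 4.69, 5.20 and 4.23 CPM in null libraries (log2 change 1.33, SE 0.17, adjusted p = 2.91e-06). Lmo2, a transcriptional cofactor of blood and vessels that held most counts of the list, fell from 132.4 to 95.3 CPM. Whether a change in the share of such cells contributes to the other results was not tested.

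The called genes of the pluripotency and neural progenitor lists all rose, while the primitive streak and neuron lists held called genes of both directions. Of 13 primitive streak genes 4 rose (7 without null replicate 1) and 1 fell (3 without a filter on low counts and 4 without null replicate 3). All tested genes rose in 14.9% and fell in 13.9% of cases. Eomes, a T-box gene of the streak, was at 133, 133 and 137 CPM in wild-type and 167, 178 and 223 CPM in null libraries (log2 change 0.49, SE 0.11, adjusted p = 0.0177), with null replicate 3 the highest. Gata4, an endoderm and heart gene, was at 36.5, 35.99 and 36.4 CPM in wild-type and 50.9, 54.5 and 59.9 CPM in null libraries (log2 change 0.60, SE 0.06, adjusted p = 1.06e-07). Krt19 and Krt8, epithelial keratins, fell from 105 to 63.4 CPM and from 315 to 243 CPM. Noto, a notochord homeobox gene, fell from 2.29 to 0.993 CPM. Of 14 neural progenitor genes 8 rose and 0 fell (median 0.43), and Olig1 and Irx5, transcription factors of the neural tube, rose from 10.3 to 20.5 CPM and from 4.40 to 7.77 CPM. Of 15 neuron genes 5 rose (2 with DESeq2) and 2 fell (median 0.21), with Nefm, a neurofilament subunit, rising from 21.1 to 28.3 CPM and Stmn2, a neuronal microtubule regulator, falling from 96.1 to 60.2 CPM. Of 22 pluripotency genes 14 rose and 0 fell (median 0.60), with 1 fall without null replicate 3 or without a filter on low counts. Pou5f1 or OCT4 was at 348, 369 and 359 CPM in wild-type and 456, 465 and 501 CPM in null libraries (log2 change 0.40, SE 0.039, adjusted p = 7.22e-08). Nanog, another core factor of the pluripotent state, was at 10.4, 11.4 and 11.1 CPM in wild-type and 8.38, 10.97 and 12.5 CPM in null libraries and missed the threshold (adjusted p = 0.799).

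Extracellular matrix genes moved in both directions. Of 49 tested genes 18 rose and 15 fell, with a median of -0.062 and a summed level of 9211 to 9248 CPM in wild-type and 7876 to 8133 CPM in null libraries. Of 12 fibroblast genes 7 rose and 2 fell (median 0.38), while 14.9% of all tested genes rose and 13.9% fell. Col1a1, which encodes the more abundant chain of type I collagen, was at 17.2, 17.5 and 16.7 CPM in wild-type and 38.6, 37.01 and 36.2 CPM in null libraries (log2 change 1.12, SE 0.065, adjusted p = 1.53e-11). Its partner Col1a2 moved the other way, at 105, 109.3 and 114 CPM in wild-type and 70.7, 83.7 and 77.2 CPM in null libraries (log2 change -0.50, SE 0.054, adjusted p = 3.34e-07). Postn, or periostin, of mesenchymal matrix, was at 5.02, 4.16 and 5.38 CPM in wild-type and 12.6, 14.5 and 10.5 CPM in null libraries (log2 change 1.38, SE 0.13, adjusted p = 5.13e-08). The genotypes were apart in all 3. Tnc, the matrix protein tenascin C, Bgn, the proteoglycan biglycan, and Col5a2, a fibril-regulating collagen chain, rose from 13.2 to 26.3 CPM, from 8.20 to 16.8 CPM and from 2.51 to 6.14 CPM. Lox, which crosslinks collagen and elastin, was at 3.42, 3.68 and 3.48 CPM in wild-type and 12.5, 9.20 and 10.4 CPM in null libraries (log2 change 1.59, SE 0.13, adjusted p = 7.39e-09), while its relative Loxl4 fell from 9.07 to 4.65 CPM.

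Adhesion and guidance genes differed in both directions. Cdh11, a mesenchymal cadherin, was at 79.9, 80.97 and 78.6 CPM in wild-type and 113, 117 and 114 CPM in null libraries (log2 change 0.52, SE 0.043, adjusted p = 5.56e-09), and Fat4, a giant cadherin of planar polarity, was at 15.9, 18.5 and 18.6 CPM in wild-type and 10.4, 12.6 and 10.7 CPM in null libraries (log2 change -0.65, SE 0.093, adjusted p = 1.35e-05). Nrp1, a receptor for semaphorins and VEGF, rose from 6.93 to 12.3 CPM, and Sema5a, a guidance ligand, fell from 21.3 to 14.2 CPM. Plxna2, a semaphorin receptor, fell from 487 to 418 CPM. Of 51 axon guidance genes 10 rose (6 with DESeq2) and 15 fell, compared with 14.9% and 13.9% of all tested genes.

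**Figure D4:**
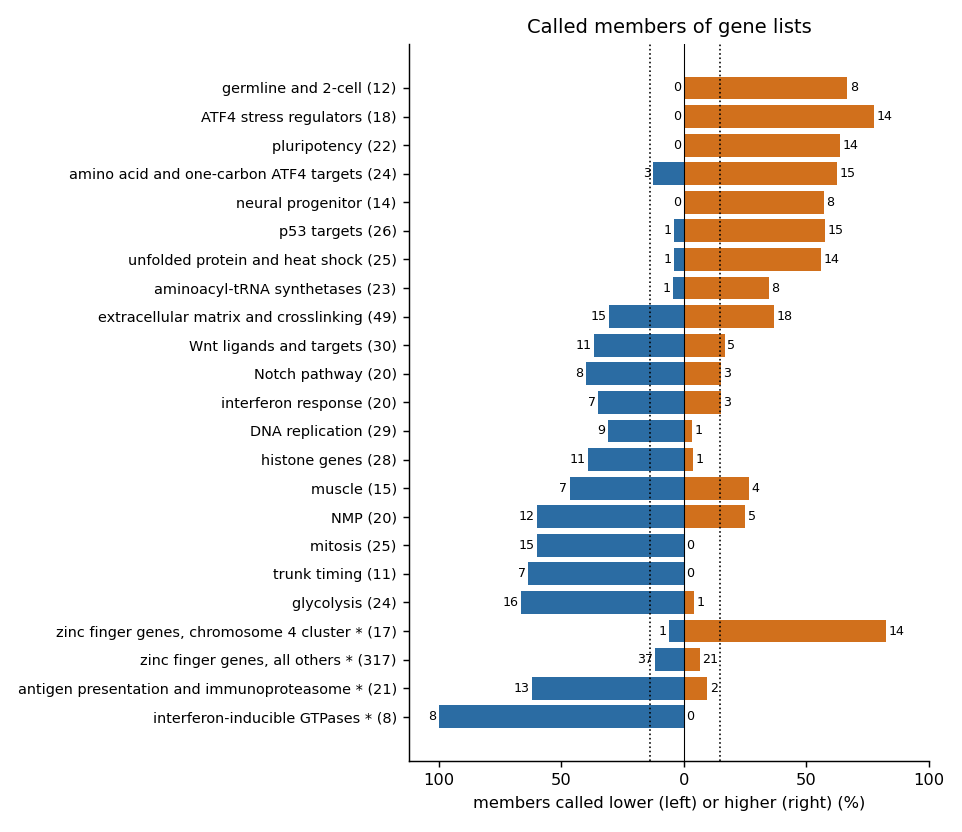
Bars give the percent of tested members (number in brackets) of selected gene lists and groups that fell (left) or rose (right) in null NMPs, with the counts at the bar ends and an asterisk for groups put together after values were seen. Dotted lines mark the 13.9% and 14.9% of all tested genes, and ATF4 stress regulators and germline genes reach far to the right while glycolysis and mitosis genes reach far to the left.

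Some of the largest changes concerned pseudogenes and predicted genes, named after their values were seen. Gm8199, a processed pseudogene on the X chromosome, held 5 counts over the wild-type and 1557 over the null libraries, or 0.245, 0 and 0.0544 CPM in wild-type and 29.5, 26.3 and 31.3 CPM in null libraries. Gm14165, another on chromosome 2, was at 1.59, 1.43 and 1.90 CPM in wild-type and 37.5, 38.1 and 37.2 CPM in null libraries. The predicted gene Gm5678 held 110 counts over the wild-type and 0 over the null libraries, at least 35.3-fold lower against a floor of 3 counts over the null group. Gm8199 and Gm5678 were almost lacking in 1 genotype, and Gm14165 was low in wild type.

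For a ribosomal protein the parent gene and its copies moved in opposite ways. Rplp0 was at 2082, 2056 and 2050.2 CPM in wild-type and 881, 996 and 1006 CPM in null libraries (log2 change -1.10, SE 0.041, adjusted p = 5.39e-15). Its processed copy Gm8730 was at 64.3, 61.04 and 63.6 CPM in wild-type and 329, 379.6 and 404 CPM in null libraries and its copy Rplp0-ps1 at 0.856, 0.908 and 1.251 CPM in wild-type and 18.7, 22.6 and 22.6 CPM in null libraries. The summed level of the 3 went from 2115 to 2147 CPM in wild type down to 1228 to 1433 CPM in null libraries. Atp6v0c, a proton pump subunit, was at 34.6, 29.7 and 28.4 CPM in wild-type and 53.6, 51.7 and 60.3 CPM in null libraries, and its copy Atp6v0c-ps2 at 30.2, 30.7 and 30.998 CPM in wild-type and 9.20, 10.3 and 9.95 CPM in null libraries, with a summed level of 59.4 to 64.7 and 62.1 to 70.3 CPM. Reads can be assigned to a copy or to its parent, and which was their source was not tested. Of 82 tested ribosomal protein genes 3 rose and 5 fell, both under the 14.9% and 13.9% of all tested genes. The count of fallers was 20 without null replicate 3, 12 without a filter on low counts and 2 without wild-type replicate 2 or 3.

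On the Y chromosome, Eif2s3y, a translation initiation factor subunit, was at 22.1, 22.6 and 21.3 CPM in wild-type and 51.5, 57.8 and 52.04 CPM in null libraries (log2 change 1.29, SE 0.063, adjusted p = 5.1e-13), and Ddx3y, an RNA helicase, was at 27.4, 28.1 and 28.9 CPM in wild-type and 48.4, 50.1 and 44.9 CPM in null libraries (log2 change 0.77, SE 0.06, adjusted p = 2.56e-09). Both were well expressed in all 6 libraries and the genotypes did not overlap. Of 6 tested Y genes 3 rose, the third being Uty, whose call was lost without wild-type replicate 2 (adjusted p = 0.0602). Xist, the noncoding RNA of X inactivation, was at 0.550, 0.239 and 0.381 CPM in wild-type and 1.76, 1.20 and 1.20 CPM in null libraries (log2 change 1.85, SE 0.34, adjusted p = 0.000229). Of 7 tested protein-coding genes of the mitochondrial genome 6 fell (3 without wild-type replicate 2), and 7 of 14 when its tested rRNA and tRNA genes were included, among them mt-Co1, a subunit of cytochrome oxidase, at 2894, 2922 and 3002 CPM in wild-type and 2335, 2383 and 2111 CPM in null libraries (log2 change -0.37, SE 0.038, adjusted p = 2.31e-07), with null replicate 3 the lowest. Of 77 nuclear genes for respiratory chain subunits 9 fell and 2 rose, against 13.9% and 14.9% of all tested genes. The fallers were 16 without null replicate 3, 5 without wild-type replicate 3 or null replicate 2, and 2 without wild-type replicate 2.

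The neural progenitors with Hoxb1 offer the reverse manipulation in another cell type. There, the cells with Hoxb1 were the ones given doxycycline, so that the effects of the 2 cannot be told apart, and the cell type differs from NMPs. With Hoxb1 and without SAG, 24.7% of 15074 tested genes were higher and 25.4% lower, and with SAG 20.5% and 21.8% of 16223. Among the genes tested in both cell types, those that fell in null NMPs were higher with Hoxb1 in 33.7% of cases without SAG and 29.0% with SAG, and lower in 23.6% and 23.2%. The corresponding shares of all genes tested in both were 25.0% and 20.9% higher and 25.3% and 21.3% lower. Genes that rose in null NMPs were lower with Hoxb1 in 32.4% and 30.1% of cases and higher in 28.3% and 20.1%. Most genes thus did not mirror. At 5 CPM or more and leaving out Hox and predicted genes, 289 of 1814 genes that fell were higher with Hoxb1 in both neural progenitor sets, and 226 of 1555 that rose were lower in both. The share of all genes called in both sets under these filters was not counted, so whether these numbers exceed it was not tested.

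Tmem132c, a membrane protein of neural cells, showed the mirrored pattern and was at 19.2, 17.7 and 18.1 CPM in wild-type and 8.56, 8.84 and 8.24 CPM in null libraries of NMPs. In neural progenitors its mean was 68.9 CPM without and 125 CPM with Hoxb1, and 100.9 and 182 CPM in the presence of SAG (log2 changes 0.86 and 0.85, edgeR adjusted p = 3.72e-27 and 1.21e-16). Greb1l, a coactivator-like gene needed for kidney development, fell from 69.9 to 43.2 CPM in null NMPs and stood at 17.1 and 88.9 CPM without and with Hoxb1, and at 29.7 and 66.9 CPM with SAG. Tgfb2, a TGF-beta ligand, fell from 7.001 to 3.87 CPM and stood at 33.7 and 61.6 CPM, and at 26.2 and 51.8 CPM with SAG. Daam2, a formin of Wnt signalling, fell from 5.37 to 2.73 CPM and stood at 12.5 and 30.6 CPM, and at 15.3 and 31.6 CPM with SAG. Scn9a, a sodium channel gene, fell from 20.4 to 12.3 CPM, and stood at 5.50 and 10.2 CPM, and at 2.95 and 15.1 CPM with SAG.

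In the other direction, Chac1 stood at 135 CPM without and 17.9 CPM with Hoxb1 in neural progenitors, and at 45.3 and 7.18 CPM with SAG, against a change of 3.31 to 7.37 CPM from wild-type to null NMPs. Trib3 stood at 103 and 9.15 CPM, and at 18.8 and 6.27 CPM with SAG. The ATF4 stress list was lower with Hoxb1 in 17 of 18 genes without SAG (median -1.42) and in 11 of 18 with SAG (median -0.42), and the list of amino acid genes in 23 and 17 of 24. Of the chromosome 4 zinc finger genes, 10 of 13 were lower without SAG and 4 of 17 with SAG, the latter a share near the 21.3% of all genes, and none was higher. Of the germ cell genes outside the list, 14 of 19 and 11 of 23 were lower, Cpeb1 among them.

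The interferon genes and p53 targets did not mirror. Of all genes tested in both cell types, 25.0% were higher and 25.3% lower with Hoxb1 without SAG, and 20.9% and 21.3% with SAG. Of the interferon-inducible GTPases, 0 of 6 was higher with Hoxb1 without SAG and 1 of 8 with SAG, while 1 and 3 were lower, and antigen presentation genes were higher in 1 of 18 and 1 of 21. The p53 targets, higher in null NMPs, were also higher with Hoxb1, in 14 and 18 of 26 genes. Glycolysis genes, lower in null NMPs, were higher with Hoxb1 in 7 and lower in 5 of 24 genes without SAG, both near the shares of all genes. With SAG, 17 of the 24 glycolysis genes were lower and 1 was higher. Mitosis genes, lower in null NMPs, were higher with Hoxb1 in 21 of 25 without SAG (median 0.27), and with SAG 4 were higher and 1 lower (median 0.027).

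**Figure D5:**
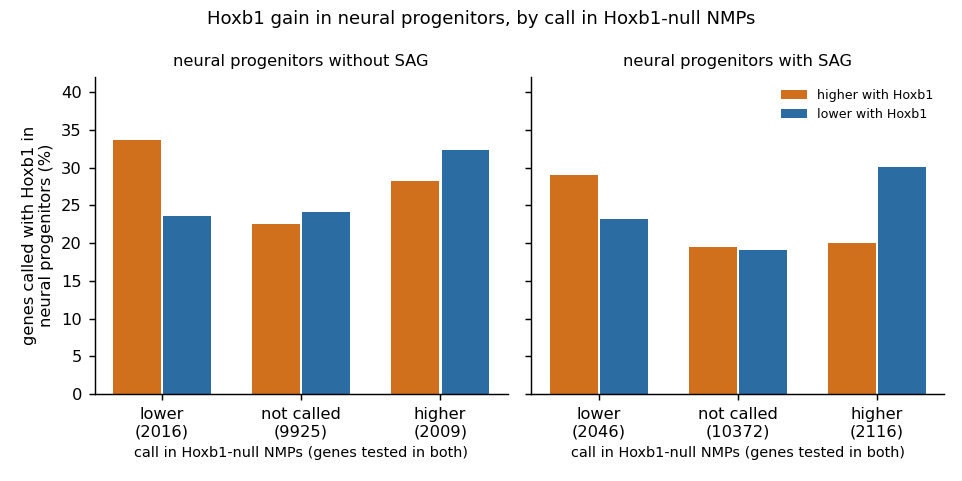
Bars give the percent of genes that were higher or lower with Hoxb1 in neural progenitors, without SAG at left and with SAG at right, for genes that were lower, not called or higher in null NMPs, with the number of genes tested in both cell types under each pair. Genes lower in null NMPs were more often higher than lower with Hoxb1 (33.7% and 23.6% without SAG), and genes higher in null NMPs more often lower (32.4% and 28.3%).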

How the data were processed

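RNA was measured by poly(A)-selected, strand-specific sequencing, per the labels' protocols. The authors deposited 1 table of read counts per gene for all 18 libraries. bcl2fastq 1.8.2, featureCounts 1.4.6 and mm10 are named in the submitters' processing notes, while the read aligner, the gene annotation, the strandedness option and the handling of reads with several matches were not given in the sources used here. For 35449 gene identifiers a symbol was found, and 1775 had none.

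The comparison used edgeR 4.0.16 in R 4.3.3, with a filter on low counts that kept 15032 genes, TMM scaling (0.990 to 1.01), a quasi-likelihood fit on the 6 NMP libraries, Benjamini-Hochberg adjustment across the whole set tested, and glmTreat for the test against 1.5-fold. Alternatives were DESeq2 1.42.0, upper-quartile scaling, no filter or a stricter one, a replicate block, a fit with all 18 libraries and leaving out each library. The fits were tested on simulated data. Genes were named as the 12 largest changes each way at 5 CPM or more in the higher group, up to 4 of the most changed called genes of each list at 1 CPM or more, the mirrored genes, and others picked after their values were seen. Members and lists were chosen with earlier results of these data known. Some genes that these rules select are not reported here.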

Additional observations from a re-analysis of the deposited data

How the results depend on the processing

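Of 232 genes named in the text, 210 kept their call in every alternative that tested them, and the stricter filter left 8 of the 232 untested. The exceptions among called genes were Asns, Dio3, E2f1, Edem1, Gbp4, Gbp9, H2-Q2, Herpud1, Jdp2, Kars, Nkx1-2, Sox2, T, Tap1, Uty, Zfp933, Zfp991, Zfp992 and Zmat3, which lost it in at least 1. Of the others, B2m and Lin28a gained a call, and the log2 change of Nanog, which was not called, ranged from -0.18 to 0.088 over the fits that left out 1 library. The cause of these changes was not tested. DESeq2 called 1424 genes higher, and 49 higher and 42 lower in the test against 1.5-fold. Leaving out 1 library at a time gave 1512 to 2514 genes higher and 1416 to 2583 lower, with 95 to 152 higher and 65 to 76 lower past 1.5-fold. The largest shift of an autosome's median log2 change was 0.028, and it was 0.046 with upper-quartile scaling, 0.033 with DESeq2, 0.039 without a filter on low counts, and 0.019 to 0.031 when 1 library was left out. Genes mirrored in neural progenitors numbered 202 to 347 and 164 to 251 without 1 library.

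The replicate numbers showed no pairing of the libraries: deviations from the group means of same-numbered libraries correlated at 0.073, 0.0046 and -0.087 over 11227 genes. Differently numbered libraries correlated at -0.13 to 0.14, and whether any of them shared a batch was not tested. A fit with the replicate block called 2181 genes higher and 2047 lower, 163 and 87 of them past 1.5-fold. Low counts limit the weakly expressed genes, where 222 rather than 326 genes rose at least 2-fold under the stricter filter.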
